A study of Mus musculus with 8 samples.

Results

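The 8 genes described here build and feed the red blood cell: Sptb, Ank1, Slc4a1, Epb42, Gypc and Rhag encode parts of its membrane, Epor encodes the receptor for erythropoietin, and Pklr encodes its pyruvate kinase. They were chosen by name, by matching Ensembl gene IDs of the deposited mRNA table to symbols, and all 8 of 8 were found, each as a single entry among 29639 genes. Their levels were compared between whole mouse embryos of 4 genotypes. In 3 of these an insertion of 3 polyadenylation cassettes, which stop a transcript early, sat in the promoter of the imprinted gene Gtl2 (also called Meg3): on the copy from the father only (PKI), on the copy from the mother only (MKI) or on both copies (HOMO). The fourth genotype was wild type (WT) and carried no insertion.

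The knock-in was made with Easi-CRISPR, a form of gene editing, and no other allele or treatment is given for any group, nor are the strain, the sex of the embryos or whether embryos were pooled. The design text puts all embryos at embryonic day 12.5, while the sample titles give 12.5 for WT only and a day that is later by a step of 0.1 in PKI, then MKI, then HOMO. The labels describe 2 samples per genotype, but the table holds 1 column per genotype, so there is no replicate, no spread within a genotype and no p-value in what follows. The unit is FPKM, a level scaled for transcript length and for the size of the library, and can be compared between genes. A difference is between values of log2(FPKM + 0.5), and a gene is called 2-fold higher or lower when that difference reaches 1 or -1.

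A mature red cell keeps its shape through a net of spectrin under the membrane. Ankyrin ties this net to the anion exchanger, which swaps chloride for bicarbonate, and other proteins hold the net to glycophorins. The cells form under erythropoietin, whose receptor signals through the kinase Jak2, and they live on glycolysis, which ends with pyruvate kinase. At midgestation the blood of a mouse embryo holds large yolk-sac-derived red cells with embryonic globins, while the fetal liver begins to deliver red cells with adult-type globins. Whole-embryo RNA mixes all of these with every other tissue. A lower level can therefore come from fewer red cell precursors or from less RNA in each, and these cannot be told apart here.

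RefSeq promoter windows on GRCm38.p6 ran from 250 bases before to 50 bases after a transcript start. Windows were read for 5 of the 8 genes, with 2 windows for Pklr. They are shown because several of these genes lay low together in PKI, and because Epor and Rhag, which parted most in MKI, and the 2 starts of Pklr can be read side by side. The window of Epor is chr9:21963527-21963826 on the minus strand, that of Rhag chr17:40810899-40811198 on the plus strand, and those of Pklr chr3:89135892-89136191 and chr3:89136373-89136672 on the plus strand. Capitals mark matches, on either strand, to the letters AGATAA and TGATAA, and likewise to AGATAG together with TGATAG, which GATA factors bind, and to CCNCNCCC, letters of the type bound by the red cell factor KLF1.
Epor: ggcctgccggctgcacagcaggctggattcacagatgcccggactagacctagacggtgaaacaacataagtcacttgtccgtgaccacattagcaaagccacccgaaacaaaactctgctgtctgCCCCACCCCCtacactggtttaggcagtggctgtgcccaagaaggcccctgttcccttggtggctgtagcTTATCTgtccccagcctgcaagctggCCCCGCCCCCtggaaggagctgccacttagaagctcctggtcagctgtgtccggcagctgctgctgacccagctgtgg
Rhag: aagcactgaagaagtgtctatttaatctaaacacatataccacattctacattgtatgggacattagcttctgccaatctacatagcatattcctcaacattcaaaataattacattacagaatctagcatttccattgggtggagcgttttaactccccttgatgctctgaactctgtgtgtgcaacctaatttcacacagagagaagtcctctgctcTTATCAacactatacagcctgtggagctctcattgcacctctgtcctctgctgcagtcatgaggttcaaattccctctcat
Pklr upstream start: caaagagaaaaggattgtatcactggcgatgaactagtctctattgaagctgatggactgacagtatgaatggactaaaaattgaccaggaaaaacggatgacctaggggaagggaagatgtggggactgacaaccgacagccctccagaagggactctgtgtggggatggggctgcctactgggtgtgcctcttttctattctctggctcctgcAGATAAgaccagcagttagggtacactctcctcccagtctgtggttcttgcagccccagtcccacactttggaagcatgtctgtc
Pklr downstream start: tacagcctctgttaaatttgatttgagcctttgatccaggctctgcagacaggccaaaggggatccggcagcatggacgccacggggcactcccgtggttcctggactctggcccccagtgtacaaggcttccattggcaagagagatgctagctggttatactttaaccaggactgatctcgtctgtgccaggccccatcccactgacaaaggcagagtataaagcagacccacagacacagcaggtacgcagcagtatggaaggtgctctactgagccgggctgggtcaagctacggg

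In the Epor window a GATA-type match began 54 bases before the start, between 2 overlapping pairs of CCNCNCCC matches that began 124 and 122 and again 28 and 26 bases before it. The Rhag window held a GATA-type match that began 31 bases before the start and no CCNCNCCC. The upstream Pklr window held a GATA-type match that began 35 bases before the start, and the downstream one held neither. Sptb and Epb42 also had a GATA-type match each, so that a match was in 5 of the 5 genes read and in 5 of 6 windows. No window of Ank1, Slc4a1 or Gypc was read, so these counts leave those genes out. Over all promoters the shares were 29.8% of 32851 windows and 33.0% of 27025 genes. CCNCNCCC was in 2 of the 5 genes (51.9% of all genes), and the E-box letters CANNTG, which can overlap the other motifs, were in 3 of 5 (75.0% of all genes). A match describes letters and not a bound site, and a gene-level FPKM does not separate the starts of Pklr.

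Across the 4 columns PKI was the lowest for 6 of the 8 genes and MKI for the other 2, Slc4a1 and Epor. HOMO was the highest for Sptb, Ank1, Slc4a1 and Gypc, MKI for Epb42 and Rhag, and WT for Epor and Pklr. The ratio of the highest to the lowest column ran from 1.24 for Gypc to 4.91 for Pklr. All 8 genes passed the filter of 1 FPKM in at least 2 columns, as did 13279 genes in all.

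**Figure D1:**
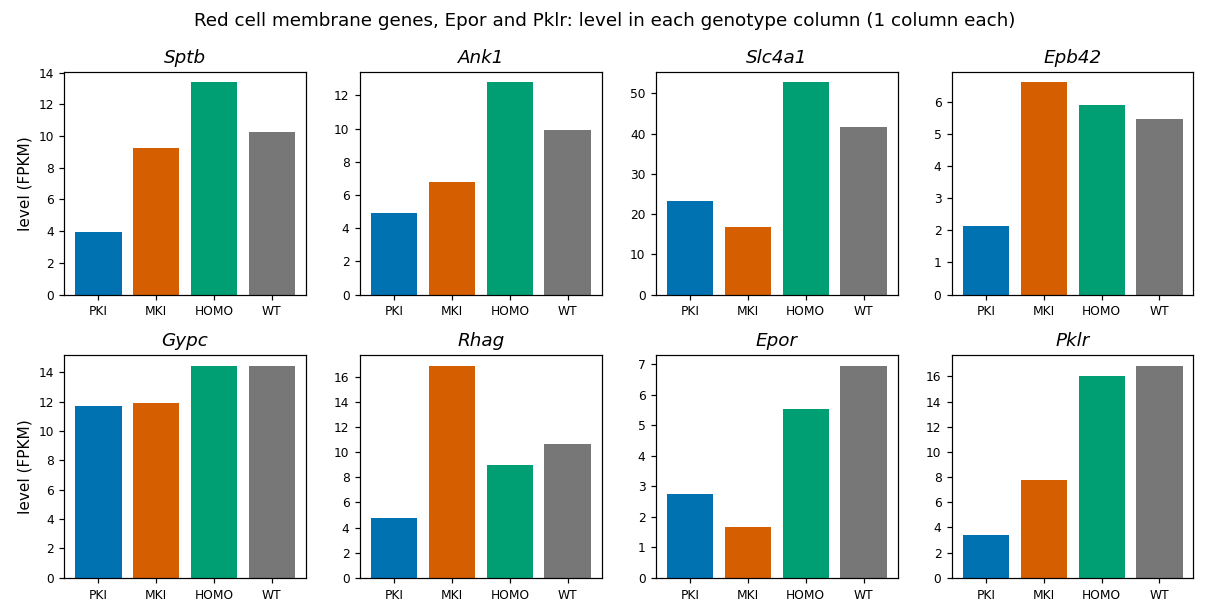
Level in FPKM (bars from 0) of each of the 8 genes in the PKI, MKI, HOMO and WT columns, 1 column per genotype and hence no error bars; each panel has its own scale. PKI is the shortest bar in 6 panels, MKI is the shortest for Slc4a1 and Epor and the tallest for Epb42 and Rhag, and Gypc is nearly level.

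The first group of genes makes the spectrin net and its anchor. Sptb, the beta chain of red cell spectrin (chromosome 12, 76580488 to 76710547, GRCm38.p6), stood at 3.97 FPKM in PKI, 9.22 in MKI, 13.4 in HOMO and 10.3 in WT. PKI alone lay apart, at 38.7% of WT, and the other 3 columns lay within 1.45-fold of each other. Ank1, red cell ankyrin (chromosome 8, 22974836 to 23150501), stood at 4.93 FPKM in PKI, 6.79 in MKI, 12.78 in HOMO and 9.90 in WT. Its order of columns was the same as for Sptb, and in MKI it was at 68.6% of WT, against 89.8% for Sptb. HOMO was at 129% of WT for Ank1 and 130.2% for Sptb.

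The second group spans or lines the membrane. Slc4a1, the chloride and bicarbonate exchanger (chromosome 11, 102348820 to 102365281), was the most abundant of the 8 genes in HOMO, WT and PKI, at 23.2 FPKM in PKI, 16.8 in MKI, 52.7 in HOMO and 41.6 in WT. MKI and PKI were both low, at 40.4% and 55.7% of WT. Epb42, a protein related to transglutaminases but without their activity that binds the exchanger and ankyrin (chromosome 2, 121017891 to 121036877), stood at 2.15 FPKM in PKI, 6.61 in MKI, 5.91 in HOMO and 5.46 in WT. Only its PKI value stood apart, at 39.4% of WT. Rhag, a gas or ammonia channel needed for Rh proteins at the cell surface (chromosome 17, 40811099 to 40844094), stood at 4.79 FPKM in PKI, 16.9 in MKI, 9.00 in HOMO and 10.6 in WT, so that MKI was 1.59 times WT and PKI 45.1% of it. Gypc, glycophorin C, which fastens the skeleton to the membrane and is also made outside blood (chromosome 18, 32528320 to 32560034), varied least, at 11.7 FPKM in PKI, 11.9 in MKI, 14.4 in HOMO and 14.4 in WT.

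The receptor and the enzyme had the widest ranges. Epor (chromosome 9, 21958897 to 21963576) stood at 2.74 FPKM in PKI, 1.65 in MKI, 5.52 in HOMO and 6.96 in WT. Both columns with an insertion on 1 copy were low, MKI at 23.7% of WT and PKI at 39.3%, whereas HOMO was at 79.4%. Pklr, whose product is the pyruvate kinase of red cells and, from another start, of liver (chromosome 3, 89136122 to 89146815), stood at 3.43 FPKM in PKI, 7.80 in MKI, 16.0 in HOMO and 16.8 in WT. PKI held 20.4% of the WT level of Pklr, the lowest share of any of the 8 genes in PKI, and MKI held 46.3%.

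PKI was set against WT to ask what goes with the insertion on the copy from the father, which normally keeps Gtl2 silent. All 8 genes were below WT, as were 59.5% of the 13279 genes. Of the 8 genes 5 were 2-fold lower (Sptb, Epb42, Rhag, Epor and Pklr), whereas 1.45% of the 13279 genes were lower and 0.700% higher by as much. The median difference of the 8 genes was -1.12, from -2.14 for Pklr to -0.30 for Gypc, against -0.07 for all genes. Ank1, at -0.94, and Slc4a1, at -0.83, lay just short of the threshold. Of all genes, 0.0678% had a lower difference than Pklr, 0.618% than Sptb, 2.85% than Slc4a1 and 22.1% than Gypc. Each of the 5 calls held under every other pseudocount, filter and scaling tried.

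Other genes of the red cell membrane were partly lower in PKI as well. Their counts are to be read beside all genes, of which 59.5% were below WT and 1.45% 2-fold lower. The 11 further genes of the membrane skeleton had a median difference of -0.13, and none was 2-fold higher. Skeleton genes that many tissues use differed less, such as Epb41 at 38.8 FPKM in PKI against 48.9 in WT and Add1 at 53.6 against 56.0. Of 16 surface and channel genes 13 were below WT and 3 were 2-fold lower (median -0.48): the calcium-gated potassium channel gene Kcnn4 (1.63 FPKM in PKI against 5.19 in WT), the blood group gene Ermap (5.01 against 11.9) and Rhd (4.60 against 10.6), a partner of Rhag that belongs to the same family.

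Genes that act with Epor or Pklr lay nearer to WT in PKI. None of 13 genes of erythropoietin signalling that passed the filter was 2-fold away from WT (median -0.13), with Jak2 at 9.41 FPKM in PKI against 10.4 in WT and Pim1, a survival kinase induced by the receptor, at 12.3 against 15.6. Epo itself lay below the filter, at 0.0744 FPKM in PKI and 0.0306 in WT. None of 16 glycolysis genes was 2-fold away either (median -0.03, 0.04 with TMM factors, which scale columns by a trimmed mean of log ratios). Hk1, the hexokinase of red cells and brain, stood at 9.58 FPKM in PKI against 16.8 in WT, while Pkm, the pyruvate kinase of most embryonic tissues, stood at 416 against 376. The relatives of these genes in other tissues, such as the spectrin gene Sptan1, included none that was 2-fold away from WT (9 genes, median -0.34).

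Among markers of blood and of other tissues some lists were lower in PKI and others were not. The counts below stand beside 59.5% of all genes below WT in PKI, 1.45% 2-fold lower and 0.700% 2-fold higher. All 14 genes of red cell regulation and heme synthesis were below WT and 3 were 2-fold lower (median -0.80): Gfi1b at 0.674 FPKM in PKI against 3.40 in WT, Gata1 at 1.70 against 5.49 and Klf1 at 4.73 against 12.798. The 4 adult-type globins summed to 57.4% of WT in PKI, but the 3 embryonic globins to 160% (4714 FPKM in PKI against 2954 in WT); globins are close copies, so their split is uncertain. Hepatocyte markers, of which 14 of 15 passed the filter, were all below WT, 10 of them 2-fold, and their summed level was 258 FPKM in PKI, 1247 in MKI, 889 in HOMO and 724 in WT. Megakaryocyte markers, which derive from a precursor shared with red cells, were 2-fold lower in 3 of 3 that passed (Itga2b, Pf4 and Ppbp), with Gp1bb and Gp9 below the filter. Neuronal markers were below WT in 8 of 8 and 2-fold lower in 3 (median -0.70). Of the 7 macrophage markers none was 2-fold away (median -0.03), and of the 7 blood progenitor markers that passed none either (median -0.24). Endothelial markers were below WT in 6 of 7, none of them 2-fold (median -0.57), and 2 of 8 skeletal muscle markers were 2-fold lower (median -0.33). As for whole embryos, each marker list had members above 1 FPKM in every column. The part of hepatocyte, megakaryocyte, vessel, muscle and neuronal differences in the values of the 8 genes was not tested.

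**Figure D2:**
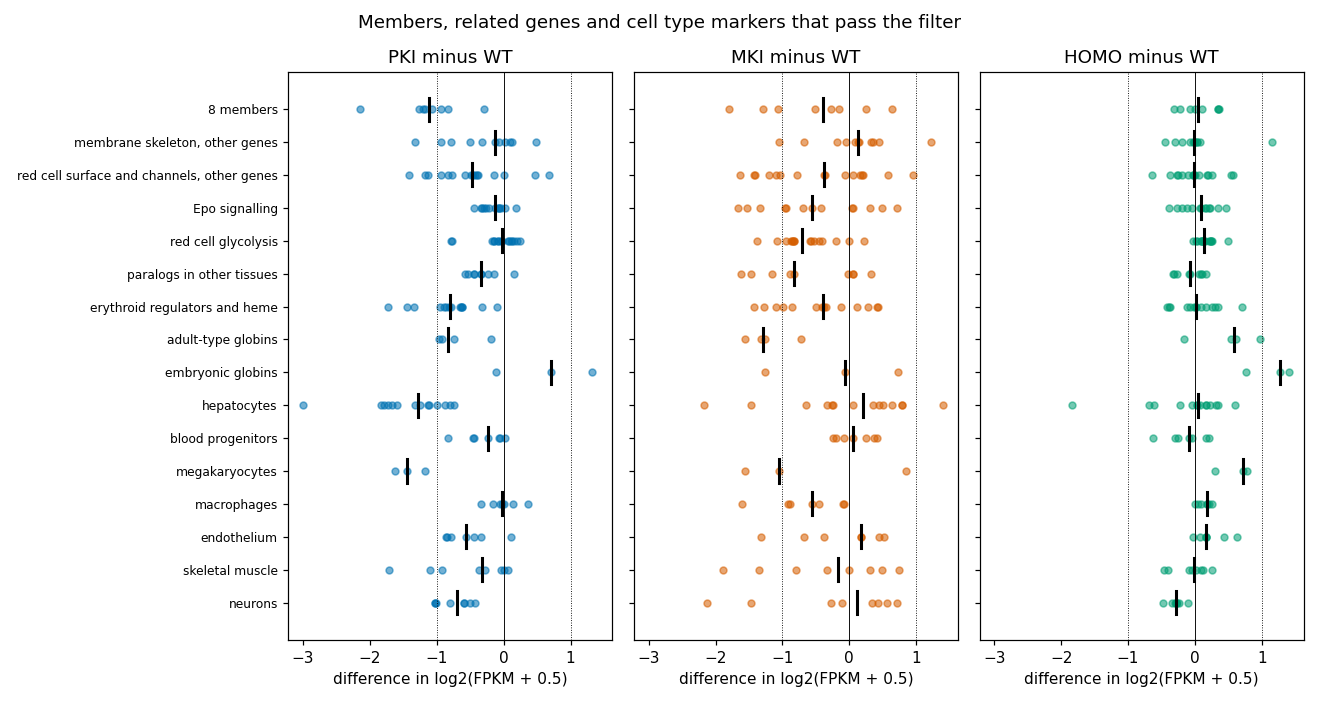
Differences in log2(FPKM + 0.5) from WT in PKI, MKI and HOMO (panels) for the 8 genes, for lists of related genes and for cell type markers; each point is a gene that passed the filter, black bars are list medians and dotted lines mark 2-fold. In PKI the 8 genes, megakaryocyte and hepatocyte markers have medians below -1, whereas in HOMO the medians of all lists except the embryonic globins (1.27, but 0.63 under quantile normalization) lie within 1 of 0.

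The comparison of MKI with WT asks what goes with the insertion on the copy that normally makes Gtl2. Here the 8 genes split. Epor (-1.79), Slc4a1 (-1.28) and Pklr (-1.06) were 2-fold lower, Rhag (0.65) and Epb42 (0.25) were above WT, and Ank1 (-0.51), Gypc (-0.27) and Sptb (-0.15) were below it by less than 2-fold. The 3 calls stand against a background in which 19.1% of all genes were 2-fold lower in MKI and 1.22% higher. Such a low level was common in this column. Pklr lost its call under quantile normalization (-0.85) and TMM scaling (-0.92), and Sptb changed sign to 0.09 under quantile normalization, which moved the median of all genes by 0.23 in MKI (0.14 under TMM). Rhag lay higher than 92.1% of all genes in this comparison and Epor higher than 4.32%.

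The split was largest between Rhag and Epor. Rhag had 10.2 times the FPKM of Epor in MKI, 1.75 times in PKI, 1.63 times in HOMO and 1.53 times in WT. Slc4a1 and Rhag were at nearly the same level in MKI, with a ratio of 0.994, whereas Slc4a1 was 4.84 times Rhag in PKI, 5.86 times in HOMO and 3.92 times in WT. Epb42 and Rhag kept closer, Epb42 being 0.391 times Rhag in MKI, 0.449 times in PKI, 0.657 times in HOMO and 0.514 times in WT. By the root mean square distance of their centred log2 values over the 4 columns, the nearest pair was Sptb with Epb42 (0.24) and the farthest was Rhag with Epor (1.03).

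The MKI column stood apart across the whole table, with r between 0.864 and 0.882 to the other columns, which correlated with each other at 0.961 to 0.975 over 13279 genes. Its differences from WT went with gene span. The median was -0.65 for 2875 genes that span under 10 kb and -0.15 for 5794 of 10 to 50 kb, but 0.15 and 0.14 for genes of 50 to 100 kb and over 100 kb. The 3 genes called lower in MKI were those with the shortest spans of the 8, Epor at 4.68 kb, Pklr at 10.7 kb and Slc4a1 at 16.5 kb. Next in length came Epb42 at 19.0 kb and Gypc and Rhag at 31.7 and 33.0 kb, and the longest were Sptb at 130 kb and Ank1 at 176 kb. The part of span, or of anything that goes with it, in these values was not tested. In PKI the class medians ran the other way, from 0.04 under 10 kb to -0.21 over 100 kb, and the part of span in the PKI values was not tested either. The share of 2-fold calls that were higher was 6.01% in MKI against WT and 25.9% under quantile normalization, and 32.5% in PKI against WT and 45.1% under quantile normalization. Y-linked genes (Ddx3y, Eif2s3y, Kdm5d and Uty) reached 7.12 FPKM or more in every knock-in column but had a value of 0 in WT, so the makeup by sex differed too.

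**Figure D3:**
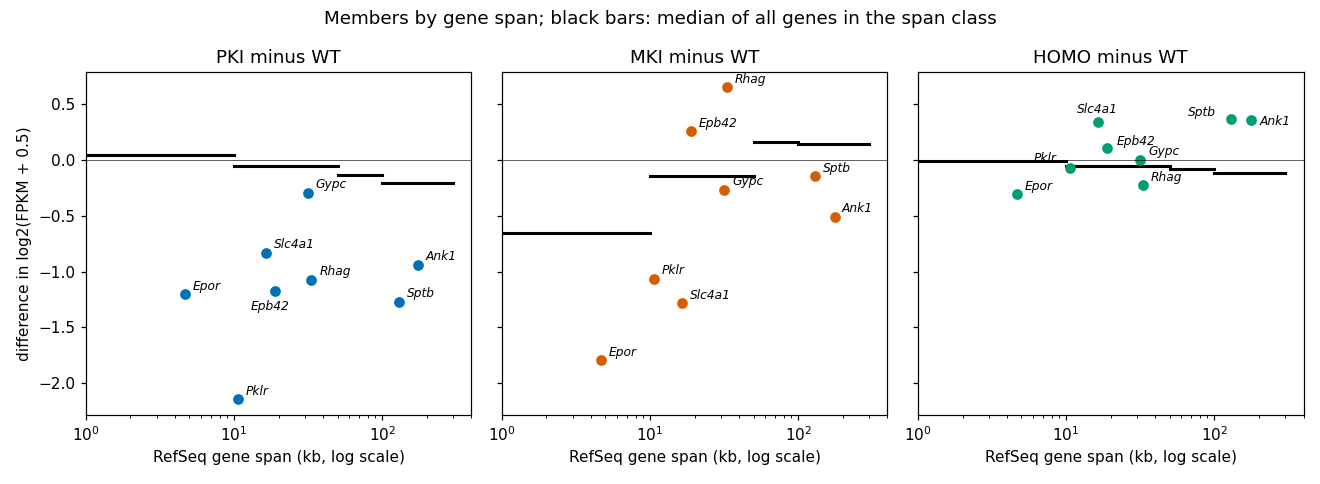
Difference in log2(FPKM + 0.5) from WT for the 8 genes (points) against RefSeq gene span in kb on a log axis, in PKI, MKI and HOMO; black bars are medians of all genes in 4 span classes. In MKI the bars lie lowest under 10 kb (-0.65) and Epor, Pklr and Slc4a1 are the lowest points; in PKI 7 of the 8 points lie below -0.8 at all spans.

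Related genes divided in MKI too. Among the skeleton genes Tpm3 was 2-fold higher, at 45.0 FPKM in MKI against 19.1 in WT, and Dmtn, dematin, 2-fold lower, at 1.75 against 4.18. Of the 16 surface genes 6 were 2-fold lower, among them the water channel gene Aqp1 (1.43 FPKM in MKI against 5.47 in WT), Icam4 (1.21 against 4.12) and Bcam (3.84 against 10.99). Of 13 erythropoietin signalling genes 3 were 2-fold lower (median -0.55, but -0.22 under quantile normalization and -0.25 with a filter of 5 FPKM): Socs3 (0.488 FPKM in MKI against 2.63 in WT) and Cish (0.386 against 1.74), inhibitors of cytokine signalling, and Pim1 (5.08 against 15.6). Socs2, of the same family as Socs3, was at 10.3 FPKM in MKI against 9.98 in WT, and Jak2 at 17.4 against 10.4. Of 16 glycolysis genes 15 were below WT and 2 were 2-fold lower, Aldoa and Ldha (median -0.71). The heme and regulator list had 3 of 14 genes 2-fold lower, Klf1, Gfi1b and Zfpm1 (median -0.39), with Gata1 at 2.52 FPKM in MKI against 5.49 in WT (-0.99). Of these 14 genes 10 were below WT and 4 above it, Tfrc, Fech, Alas2 and Slc25a37. All counts of 2-fold lower genes in MKI given here are to be read beside the 19.1% of all genes that were 2-fold lower in the same column. Counts below WT, such as that of the glycolysis genes, are to be read beside the 55.4% of all genes below WT in MKI. The adult-type globins summed to 40.1% of WT and hepatocyte markers to 172%. The hepatocyte sum rests mainly on Alb (542 FPKM in MKI against 205 in WT) and Afp (457 against 292). Of the 14 hepatocyte markers 8 were above WT in MKI and 6 below (median 0.20), with 1 gene 2-fold higher, Alb, and 2 lower, Serpina1b and Ahsg.

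The comparison of HOMO with WT asks what goes with the insertion on both copies. None of the 8 genes was 2-fold away from WT, where 0.670% of all genes were 2-fold higher and 0.783% lower. Differences ran from -0.31 for Epor to 0.37 for Sptb, with a median of 0.05, against -0.06 for all genes. Sptb, Ank1 and Slc4a1 lay together near the upper end, above 95.5%, 95.2% and 94.8% of all genes, at 127% to 130.2% of the WT level. Epor (79.4% of WT) and Rhag (84.7%) were below WT. Without replicates it is not known whether such differences exceed the spread between embryos. Related lists lay near WT too: 1 of 11 skeleton genes was 2-fold higher (Tpm3, 43.1 FPKM in HOMO against 19.1 in WT) and none of 16 surface, 13 signalling or 16 glycolysis genes was 2-fold away. The embryonic globins summed to 239% of WT in HOMO and the adult-type globins to 141%.

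Set against PKI, HOMO differs in genotype by the added insertion on the copy from the mother. All 8 genes were above PKI, as were 51.1% of all genes. Of the 8 genes 5 were 2-fold higher (Pklr, Sptb, Ank1, Epb42 and Slc4a1), while 1.55% of all genes were higher and 1.32% lower by as much. The median difference was 1.22, from 0.30 for Gypc to 2.07 for Pklr, which stood at 16.0 FPKM in HOMO against 3.43 in PKI. Epor was 2.02-fold higher in FPKM but 0.90 on the log2(FPKM + 0.5) scale, short of the threshold. The comparisons of PKI with WT and of HOMO with PKI share the PKI column, so they are not separate evidence that PKI was low. Hepatocyte markers were 2-fold higher in 10 of 14 in the same comparison, and their part in these values was not tested.

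Set against MKI, HOMO differs in genotype by the added insertion on the copy from the father. Slc4a1 (1.62) and Epor (1.49) were 2-fold higher, where 19.7% of all genes were, and Pklr lay just below the threshold at 0.99 (1.03 with a pseudocount of 0.1). Rhag, at 9.00 FPKM in HOMO against 16.9 in MKI, was lower by 0.87 on the log2 scale, without reaching 2-fold (3.64% of all genes were 2-fold lower). Between the 2 columns with a single insertion, MKI against PKI, Rhag (1.72), Epb42 (1.42), Sptb (1.12) and Pklr (1.08) were 2-fold higher in MKI, against 2.55% of all genes. None of the 8 was 2-fold lower there, where 16.6% of all genes were, and Slc4a1 and Epor were at -0.45 and -0.59. Pklr missed the threshold with a pseudocount of 1 (0.99). The share of 2-fold calls that were higher was 84.4% in HOMO against MKI (65.6% under quantile normalization) and 13.4% in MKI against PKI (29.9%).

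**Figure D4:**
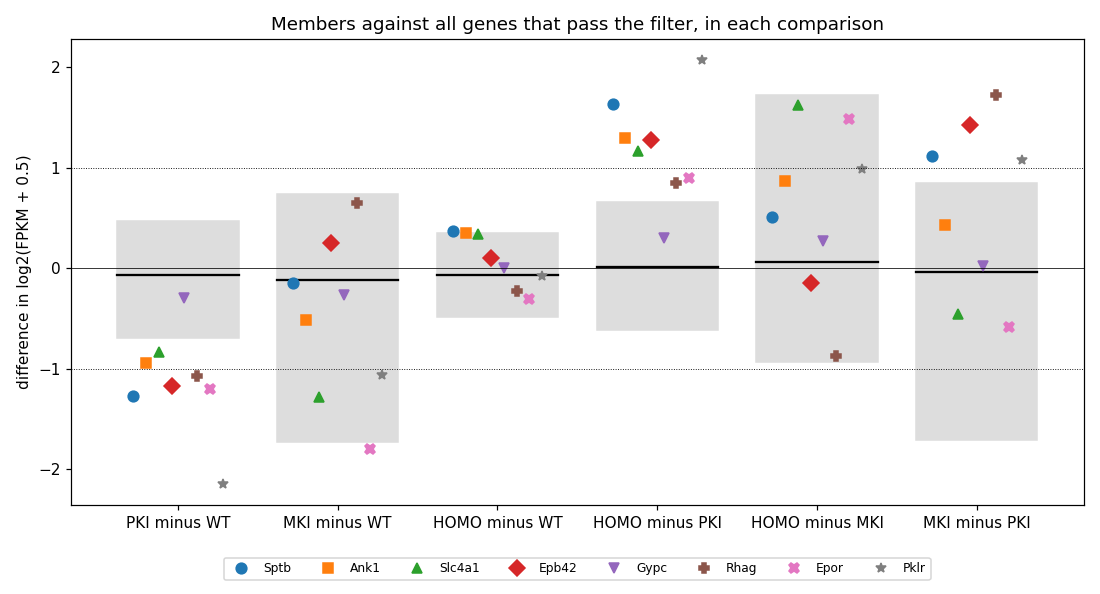
Difference in log2(FPKM + 0.5) of the 8 genes (symbols) in each of 6 comparisons; grey boxes span the 5th to 95th percentile of all 13279 genes, black lines their median, and dotted lines mark 2-fold. In PKI minus WT 7 genes lie under the grey box and in HOMO minus PKI 7 lie above it, whereas in MKI minus WT all but Epor lie inside a much taller box.

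Ank1 also carries a microRNA gene, Mir486, at chromosome 8, 23142555 to 23142682, within the Ank1 span. Its product is abundant in red cells and muscle, and it was read in the separate small-RNA table, in RPM, reads scaled to the same total in each column, where 1 read was worth 0.0993 to 0.125 RPM. mmu-miR-486a-5p stood at 748 RPM in PKI, 717 in MKI, 955 in HOMO and 647 in WT. The near-identical mmu-miR-486b-5p, which shares reads with it, stood at 772 RPM in PKI, 716 in MKI, 1009 in HOMO and 680 in WT. Ank1 mRNA and these microRNAs were both highest in HOMO, but in PKI Ank1 was at 49.8% of WT and miR-486a-5p at 115%. The other arm, mmu-miR-486a-3p, stood at 57.8 RPM in PKI, 51.6 in MKI, 60.5 in HOMO and 72.1 in WT. It was highest in WT and at 80.1% of WT in PKI, so the arms of miR-486a went opposite ways there. The scarce mmu-miR-486b-3p stood at 2.68 RPM in PKI, 2.20 in MKI, 2.37 in HOMO and 2.26 in WT.

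The red cell microRNAs of the miR-144 and miR-451a cluster on chromosome 11 are shown because they read the same lineage from other libraries. Capitals mark the seed, bases 2 to 8, and the sequences are from RefSeq on GRCm38.p6; the 3 seeds differ.
mmu-miR-451a: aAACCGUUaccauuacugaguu
mmu-miR-144-3p: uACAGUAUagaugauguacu
mmu-miR-144-5p: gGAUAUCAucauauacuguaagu
mmu-miR-451a stood at 647 RPM in PKI, 1501 in MKI, 854 in HOMO and 493 in WT, above WT in all 3 knock-in columns. mmu-miR-144-3p stood at 34.1 RPM in PKI, 42.9 in MKI, 84.9 in HOMO and 57.1 in WT, the same order of columns as for Sptb, Ank1 and Gypc. mmu-miR-144-5p stood at 143 RPM in PKI, 163 in MKI, 153 in HOMO and 116 in WT. In PKI these stood at 131%, 59.6% and 123% of WT, whereas the 5 genes called lower in PKI stood at 20.4% to 45.1%. mmu-miR-16-1-3p, from a microRNA made in most tissues, stood at 191 RPM in PKI, 261 in MKI, 238 in HOMO and 239.9 in WT. RPM is relative to all small RNAs of the table.

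Genes with the most similar pattern were found by the root mean square difference between log2 values over the 4 columns, each gene centred on its own mean, among 12615 genes with a symbol. For the mean of the 8 genes (-0.72 in PKI, -0.13 in MKI, 0.46 in HOMO and 0.39 in WT) the 10 nearest were Ampd3, Chrnb1, L1cam, Adcy7, Ermap, Hectd4, Eno2, Cdh5, Gp5 and Tmem130, at 0.0398 to 0.0945. Ampd3, the nearest, encodes the AMP deaminase of red cells and stood at 0.732 FPKM in PKI, 1.34 in MKI, 2.20 in HOMO and 1.99 in WT. Among the 10 were also Ermap of the red cell surface, the platelet receptor gene Gp5, the endothelial cadherin gene Cdh5 and L1cam, an adhesion molecule of axons. Nearest to Epor were Cryge (0.0523), the cartilage collagen gene Col2a1 (0.0563) and the elastin gene Eln (0.0726). Col2a1 stood at 27.8 FPKM in PKI, 18.8 in MKI, 58.1 in HOMO and 68.0 in WT. Nearest to Pklr were Ambp (0.152) and Serpinf2 (0.171), both made by hepatocytes, and Tuba4a (0.233). How many genes come this close to other patterns over 4 columns was not counted, so the measure describes these columns only.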

How the data were processed

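Whole embryos of 4 genotypes were profiled. Per the labels' protocols, RNA was selected with oligo(dT) beads and libraries marked strand with dUTP. The build GRCm38 and the tools StringTie 1.3.4d, HISAT2 2.0.4, cutadapt 1.9, edgeR and DESeq2 are listed in the submitters' processing notes, the last 2 with neither version nor purpose. Not given in the sources used here are the annotation, the making of the small-RNA libraries and whether a column combines libraries. The deposited mRNA values were read as FPKM, since StringTie is listed and the values are neither whole nor of equal sum; the depth behind them is unknown. The deposited small-RNA values are RPM by their equal column sums. The long non-coding table was not used here.

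Of 29639 entries 22036 had an Ensembl ID and 22022 a symbol; entries with the same symbol were summed (40 entries, 20 symbols). Genes at 1 FPKM or more in at least 2 columns were kept, and differences taken with a pseudocount of 0.5, which understates folds of low genes. With 1 column per genotype no test is possible, so calls are of size (2-fold) over all 13279 genes, and the intended fit with replicates was not made. Lists of related genes and markers are described by counts and medians of members that passed the filter. Named from each list were up to 4 genes with the largest difference from WT; others (among them Rhd, Epb41, Add1, Jak2, Sptan1, Epo, Alb, Ermap and Pkm) are examples chosen after their values were seen. Values of some list genes are not reported here. The members and lists were chosen with earlier results of these data known. Computations used Python 3.11.15, numpy 2.4.6 and pandas 2.3.3; calls and scalings were tested on simulated data. Alternatives were pseudocounts of 0.1 and 1, no filter, a filter of 5 FPKM, quantile normalization and TMM factors (unweighted, 30% of ratios and 5% of levels trimmed at each end).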

Additional observations from a re-analysis of the deposited data

Results flagged for a closer look

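For 3 of the 8 genes the same insertion went with 2-fold differences in opposite directions in the 2 backgrounds in which it can be compared. The difference between the 2 effects was not tested, since each rests on single columns. For a given gene this difference is the same number for the paternal and the maternal insertion, since both use the same columns. A gene is listed below under the insertion for which both comparisons crossed 2-fold. Epor was lower by 1.21 on the log2 scale in PKI than in WT but higher by 1.49 in HOMO than in MKI, so the paternal insertion's effects differed by 2.69; 62 of 13279 genes (0.467%) crossed 2-fold both ways like this. For the maternal insertion Slc4a1 was at -1.28 in MKI against WT and at 1.17 in HOMO against PKI, a gap of 2.45. Pklr was at -1.06 and 2.07 in the same comparisons, a gap of 3.13, although its MKI value is short of 2-fold under quantile normalization (-0.85) and TMM scaling (-0.92). For the maternal insertion 69 of 13279 genes (0.520%) did so.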

How the results depend on the processing

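The count of members past 2-fold in each of the 6 comparisons stayed within 1.5 times, and each median of the 8 genes moved by less than 0.25 on the log2 scale, under the 2 other pseudocounts, both filters, quantile normalization and TMM scaling. The median in PKI against WT ran from -1.22 (pseudocount 0.1) to -1.02 (pseudocount 1), and that in MKI against WT from -0.41 to -0.17 (quantile normalization). Among single genes 4 values crossed 2-fold: Pklr in MKI against WT missed it at -0.85 (quantile) and -0.92 (TMM), in MKI against PKI at 0.99 (pseudocount 1), and in HOMO against MKI it passed at 1.03 (pseudocount 0.1). Epor in MKI against WT ran from -2.01 to -1.39. Under quantile normalization 4 list medians moved by 0.25 or more: in MKI against WT erythropoietin signalling (-0.22, and -0.55 as deposited), relatives in other tissues (-0.33, and -0.82) and adult-type globins (-0.88, and -1.29), and in HOMO against WT embryonic globins (0.63, and 1.27). With a filter of 5 FPKM the first pair moved to -0.25 and -0.42. Small list medians changed sign, in HOMO against WT for surface genes (-0.02, and 0.07 under quantile normalization) and skeleton genes (-0.01, and 0.06 under TMM), and in MKI for embryonic globins (-0.06, and 0.09 under TMM). The cause was not tested. No paired analysis was possible because the columns carry no replicate number, and for the same reason no replicate could be left out. The unknown depth behind the FPKM values leaves no counting error for low levels such as that of Epor in MKI.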
